A study of Mus musculus with 75 samples.

Results

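The genes described here are 9 neutrophil and acute phase genes, followed in lung tissue of bleomycin-induced (BLEO-IPF) mice and controls (CTRL). They were chosen by name as *S100a8*, *S100a9*, *Csf3r*, *Retnlg*, *Ngp*, *Mpo*, *Elane*, *Lcn2* and *Saa3*, and each matched 1 of the 55536 rows of the count table. Of these, 7 were abundant enough to be tested among 16221 genes, while *Mpo* and *Elane* lay near 0 counts in all groups. Levels are given as CPM, read counts relative to the size of a library after scaling with TMM factors.

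All mice were male C57BL/6JRj mice that were 12 to 14 weeks old at dosing. Bleomycin, a cytostatic drug that damages alveolar cells, was instilled once into the trachea of the BLEO-IPF mice, which were terminated 7 (n = 10), 14, 21, 28, 35 (n = 12 each) or 42 (n = 7) days later. The 10 CTRL mice are labelled as given saline, whereas the methods describe healthy controls as untreated. Dosed mice entered the BLEO-IPF groups only if their early weight loss was mild or moderate, so weaker and stronger responses are not represented. Each mouse gave 1 poly-A library, made from the right inferior lobe, and the lungs had been rinsed with saline for collection of lavage fluid before excision. Cells that the rinse removed from the airspaces are therefore missing from the libraries.

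Neutrophils are short-lived granulocytes that form in the bone marrow, circulate in blood and enter inflamed tissue along gradients of chemokines and complement fragments. Their granule proteins are made in stages. *Mpo* and *Elane* are transcribed in bone marrow precursors, *Ngp*, *Lcn2* and *Ltf* in later precursors, and *S100a8*, *S100a9*, *Csf3r* and *Retnlg* mainly in mature cells. Acute phase proteins are secreted by liver and by injured tissue under the control of interleukin-6 and interleukin-1. *Lcn2* and *Saa3* are not restricted to neutrophils, since lung epithelium and macrophages also transcribe them during inflammation.

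Total counts per library ranged from 9240291 to 14665247 and mitochondrial genes took 0.865% to 2.87% of them. Among the markers of other cell types, the 5 red blood cell markers had a median summed level of 1730 CPM in CTRL mice and of 595 to 1095 CPM on the BLEO-IPF days, and 5 of 5 were called lower on every day other than day 28, when 3 were. Transitional alveolar epithelium markers were called higher, 4 of 4 on day 7 and 3 of 4 on every later day, and club cell markers were called lower in 2 of 4 on day 7, in 3 on days 14 to 28, in 1 on day 35 and in 0 on day 42. In bulk tissue, a change in the number of cells and a change in RNA per cell cannot be told apart. All 6 days were compared with the same 10 CTRL mice.

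One library stood apart. BLEO-IPF day 14 replicate 8 had the highest level among all 75 mice of *S100a8*, *S100a9*, *Csf3r*, *Retnlg* and *Ngp*. Its *S100a8* level was 159 CPM, against 8.04 to 39.3 CPM in the other 11 mice of that day. It also ranked first for other neutrophil genes, with *Cxcr2*, the receptor for CXC chemokines, at 20.4 CPM and *Mmp8*, the neutrophil collagenase, at 54.6 CPM. The library was not extreme in depth, with 12996042 counts, and its red blood cell markers, at 225 CPM, were the lowest of all 75 mice. Its summed monocyte markers (419 CPM) and its summed acute phase genes (7002 CPM) were the highest of all mice. The monocyte sum came mainly from *F13a1* (231 CPM, rank 1 of 75) and *Vcan* (117 CPM, rank 2), whereas *Ly6c2* ranked 38, *Plac8* 60 and *Ccr2* 75. Its summed markers of transitional alveolar epithelium (769 CPM) and of alveolar macrophages (1686 CPM) were the highest of its group. *Chil3* alone held 1589 CPM of the macrophage sum and *Marco* ranked 4, whereas *Ear2* ranked 57, *Fabp1* 69, *Ear1* 71 and *Krt79* 75. The part of these cell types in its neutrophil gene levels was not tested. Results for day 14 are given with and without this mouse.

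The bases before the start of 4 members are shown because these windows hold the letters of a C/EBP motif. C/EBP factors are known regulators of granule and acute phase genes. Sequences are from RefSeq, build GRCm38.p6, read 5′ to 3′ on the gene's strand from 250 bases before the RefSeq start and ended where an annotated exon began. Capitals mark a match to TTGCNNAA on either strand.
Saa3, chr7:46715701-46715926, minus strand: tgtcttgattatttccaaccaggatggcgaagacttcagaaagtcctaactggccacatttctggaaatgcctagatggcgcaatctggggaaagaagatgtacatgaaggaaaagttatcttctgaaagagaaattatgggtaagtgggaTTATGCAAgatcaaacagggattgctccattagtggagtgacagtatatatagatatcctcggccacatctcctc
S100a9, chr3:90695722-90695971, minus strand: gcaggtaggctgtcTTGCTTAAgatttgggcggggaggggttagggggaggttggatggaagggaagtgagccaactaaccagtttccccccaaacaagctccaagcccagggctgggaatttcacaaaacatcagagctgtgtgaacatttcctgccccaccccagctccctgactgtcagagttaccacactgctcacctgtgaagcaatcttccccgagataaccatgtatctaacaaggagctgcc
Retnlg, chr16:48872358-48872607, plus strand: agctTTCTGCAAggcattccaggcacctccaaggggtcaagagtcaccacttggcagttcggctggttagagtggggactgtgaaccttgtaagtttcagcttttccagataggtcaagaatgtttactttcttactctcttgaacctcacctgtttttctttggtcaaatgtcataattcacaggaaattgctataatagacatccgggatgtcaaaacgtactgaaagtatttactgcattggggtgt
Ngp, chr9:110419558-110419746, plus strand: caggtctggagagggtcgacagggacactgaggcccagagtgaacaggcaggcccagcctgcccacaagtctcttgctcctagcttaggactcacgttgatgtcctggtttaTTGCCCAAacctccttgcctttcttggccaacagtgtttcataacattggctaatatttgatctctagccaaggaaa

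The match lay 99 bases before the start in *Saa3*, 236 in *S100a9*, 246 in *Retnlg* and 138 in *Ngp*, and overlapped no match to another motif searched. Over the full 250 bases, 5 of 9 members (these 4 and *Lcn2*) held the motif, compared to 9.56% of 32851 gene starts in the same reference. The kappaB motif and the STAT motif TTCNNNGAA were found in 0 of 9 members, compared to 0.980% and 7.02% of all starts, and TATAAA in 1 (*S100a8*), compared to 12.4%. A match describes the letters only.

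*Lcn2* and *Saa3* were the members that rose on all 6 days. *Lcn2* encodes lipocalin 2, which binds bacterial siderophores and withholds iron (ENSMUSG00000026822, chr2, 32384633 to 32388252, minus strand, GRCm38 as for all positions here). In CTRL mice, *Lcn2* ranged from 60.3 to 124 CPM with a median of 81.2 CPM. On day 7, the range was 425 to 621 CPM with a median of 506 CPM. The lowest BLEO-IPF mouse of any day (136 CPM, on day 42) was above the highest CTRL mouse.

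From day 14 to day 42, the weekly medians of *Lcn2* were 417, 464, 269, 251 and 355 CPM. In order of their medians, the groups were day 7, day 21, day 14, day 42, day 28, day 35 and CTRL. The ranges of neighbours in this order overlapped, apart from day 35 and CTRL. The spread between mice was wider on later days, since the highest mouse was 1.46 times the lowest on day 7 and 4.58 times on day 42.

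Compared to CTRL, the log2 fold change (log2FC) of *Lcn2* was 2.60 ± 0.23 (SE) on day 7 (edgeR quasi-likelihood F test, adjusted p = 1.7e-14). It was 2.12 ± 0.22, 2.35 ± 0.23, 1.90 ± 0.22, 1.75 ± 0.22 and 2.06 ± 0.24 in the following groups, from day 14 to day 42, and the largest of these adjusted p-values was 3.8e-09. *Lcn2* was 6.06-fold of CTRL on day 7 and 3.36-fold on day 35. The groups did not overlap on any day. For comparison, every BLEO-IPF mouse lay above every CTRL mouse for 7.39%, 9.46%, 6.84%, 2.1%, 2.43% and 4.22% of all genes in weekly order from day 7 to day 42. Markers of transitional alveolar epithelium, a cell state of the injured alveolus, moved in the same direction, with a median summed level of 349 CPM in CTRL mice and 702 CPM on day 7, and 427 CPM on day 42. Their part in the result was not tested.

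*Saa3* encodes serum amyloid A3, an apolipoprotein of the acute phase that is made outside the liver (ENSMUSG00000040026, chr7, 46711998 to 46715700, minus strand). In CTRL mice, *Saa3* ranged from 0.921 to 7.39 CPM with a median of 1.13 CPM, and 9 of 10 mice lay at or below 1.60 CPM. On day 14, the range was 8.25 to 125 CPM with a median of 50.3 CPM. All mice of days 7 and 14 were above all CTRL mice, whereas later days overlapped with CTRL.

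*Saa3* differed widely between mice of one day. On day 21, it ranged from 2.61 to 261 CPM, so that the highest mouse was 100.1 times the lowest, with a median of 15.1 CPM. On day 28, it ranged from 1.99 to 145 CPM with a median of 17.6 CPM. On day 35, it ranged from 0.637 to 28.0 CPM with a median of 7.85 CPM, and the mice above the highest CTRL mouse numbered 10, 7 and 6 of 12 on days 21, 28 and 35 and 5 of 7 on day 42. The order of medians was day 14, day 7 (31.7 CPM), day 42 (18.2 CPM), day 28, day 21, day 35 and CTRL, and the ranges of all neighbours in this order overlapped.

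The log2FC of *Saa3* compared to CTRL was 4.2 ± 0.82 (edgeR, adjusted p = 2.1e-05), 4.95 ± 0.81 (3.2e-07), 5.05 ± 0.81 (3.4e-07), 4.15 ± 0.80 (2.5e-05), 2.50 ± 0.81 (0.014) and 3.25 ± 0.86 (0.0037) in weekly order from day 7 to day 42. The fitted value follows group means, and on day 21 the 2 highest mice were at 261 and 192 CPM. With limma-voom, which weighs log values, day 28 (log2FC 3.12, adjusted p = 0.053), day 35 (2.13, 0.26) and day 42 (3.11, 0.095) did not pass. The highest CTRL mouse, replicate 2, lowered each value, and without it the log2FC was 4.87 on day 7 and 3.16 on day 35.

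**Figure D1:**
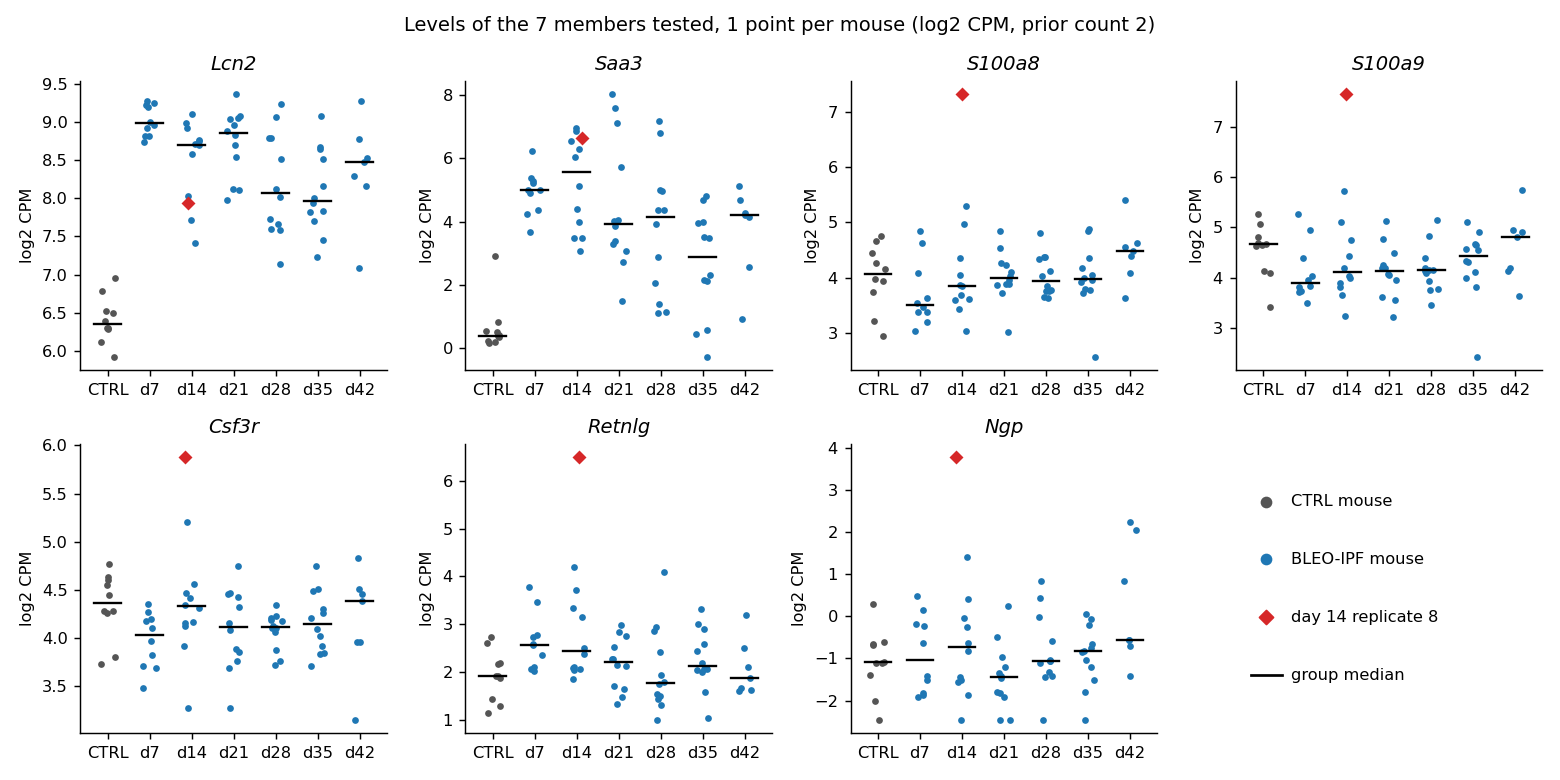
Levels of the 7 tested members (log2 CPM, prior count of 2) in each of the 75 mice by group, with CTRL and days 7 to 42 after bleomycin on the horizontal axis. Gray points are CTRL mice, blue points are BLEO-IPF mice, the red diamond is day 14 replicate 8 and bars are group medians. All *Lcn2* points of the BLEO-IPF groups lie above the CTRL points, whereas the red diamond is the highest point for *S100a8*, *S100a9*, *Csf3r*, *Retnlg* and *Ngp*.

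The 4 members expressed mainly by mature neutrophils (*S100a8*, *S100a9*, *Csf3r* and *Retnlg*) were not called on most days. *S100a8* and *S100a9* encode the subunits of calprotectin, a calcium- and zinc-binding dimer that makes up much of the neutrophil cytosol. *S100a8* (ENSMUSG00000056054, chr3, 90668978 to 90670035, plus strand) ranged from 7.55 to 26.7 CPM in CTRL mice with a median of 16.6 CPM. On day 7, it ranged from 7.99 to 28.4 CPM with a median of 11.2 CPM. On days 21, 28 and 35, the medians were 15.7, 15.1 and 15.6 CPM, and all groups overlapped with CTRL.

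On day 14, the median of *S100a8* was 14.3 CPM, below that of CTRL mice, while the highest mouse was at 159 CPM and the next at 39.3 CPM. Day 42 had the highest median, at 22 CPM, with a range of 12.2 to 42.2 CPM. *S100a8* rose on day 14 in the fit, with a log2FC of 0.77 ± 0.31 (edgeR, adjusted p = 0.027). Without day 14 replicate 8, the log2FC was 0.019 ± 0.24 (adjusted p = 0.95), and the call was also lost without CTRL replicate 9 (0.054) or CTRL replicate 10 (0.058). On the other 5 days, the log2FC lay between −0.27 on day 7 and 0.44 on day 42, and the 95% confidence intervals reached from −0.93 to 0.39 on day 7 and from −0.27 to 1.15 on day 42.

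*S100a9* (ENSMUSG00000056071, chr3, 90692632 to 90695721, minus strand) ranged from 10.6 to 38.1 CPM in CTRL mice with a median of 25.2 CPM. Its medians on the BLEO-IPF days ranged from 14.7 CPM on day 7 to 27.8 CPM on day 42, and no day passed the test. On day 14, the log2FC was 0.57 ± 0.32 (edgeR, adjusted p = 0.12) with all mice and −0.20 ± 0.25 (0.51) without replicate 8. The largest decrease in the fit was −0.42 ± 0.33 on day 21 (adjusted p = 0.28).

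*Csf3r* encodes the receptor for granulocyte colony-stimulating factor, which drives neutrophil production and release (ENSMUSG00000028859, chr4, 126024550 to 126044440, plus strand). Its median was 20.5 CPM in CTRL mice (13.2 to 27.2 CPM) and 16.2 CPM on day 7 (11.0 to 20.2 CPM). The log2FC was −0.37 ± 0.18 on day 7 (edgeR, adjusted p = 0.091), between −0.29 and −0.11 on days 21 to 42, and 0.18 ± 0.17 on day 14, so no day passed. On day 28, its highest mouse was 1.55 times the lowest. Without day 14 replicate 8, the day 7 value did not move, but its adjusted p became 0.049, and that of *Retnlg* on day 7 (log2FC 0.77) went from 0.12 to 0.038.

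*Retnlg* encodes resistin-like gamma, a secreted protein found in neutrophils and bone marrow (ENSMUSG00000022651, chr16, 48872621 to 48874496, plus strand). It ranged from 2.04 to 6.47 CPM in CTRL mice with a median of 3.61 CPM. On day 7, the range was 3.88 to 13.5 CPM with a median of 5.78 CPM, and on day 14, it was 3.45 to 90.3 CPM with a median of 5.25 CPM and a second highest mouse at 18.3 CPM. Medians then ran from 3.25 CPM on day 28 to 4.45 CPM on day 21.

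Among these 4 members, *Retnlg* was the one whose call on day 14 held without replicate 8. The log2FC was 1.87 ± 0.40 (edgeR, adjusted p = 5.1e-05) with all mice and 0.90 ± 0.31 (0.0096) without it, and 5 of 12 mice were above the highest CTRL mouse. The other days did not pass, with values from 0.20 on day 42 to 0.77 ± 0.42 on day 7.

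*Ngp* encodes neutrophilic granule protein, a cathelin-related protein of secondary granules (ENSMUSG00000032484, chr9, 110419747 to 110423012, plus strand). It was close to the detection limit, with 0 to 10 counts per CTRL mouse and 6 mice without a count over all groups. Median levels were 0.286 CPM in CTRL mice, between 0.186 and 0.419 CPM on days 7 to 35 and 0.496 CPM on day 42. *Ngp* rose on day 14 in the fit (log2FC 2.25 ± 0.64, edgeR, adjusted p = 0.0019), but replicate 8 held 162 counts, and without it the log2FC was 0.74 ± 0.58 (0.27).

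On day 42, *Ngp* rose again, with a log2FC of 2.24 ± 0.71 (edgeR, adjusted p = 0.015). The 7 mice held 5, 5, 52, 46, 17, 5 and 2 counts, so that 3 of 7 lay above the highest CTRL mouse and the remaining 4 lay inside the CTRL range. The call was lost without replicate 3 (log2FC 1.77, adjusted p = 0.081) or replicate 4 (1.87, 0.056).

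*Mpo* encodes myeloperoxidase, the enzyme that makes hypochlorous acid (ENSMUSG00000009350, chr11, 87793581 to 87804413, plus strand), and *Elane* encodes neutrophil elastase (ENSMUSG00000020125, chr10, 79886247 to 79888215, plus strand). *Mpo* summed to 6 counts in the 10 CTRL mice and to 10, 10, 3, 6, 8 and 4 counts in weekly order from day 7 to day 42, and no mouse had more than 3 counts. *Elane* summed to 1 count in CTRL mice and to 5, 3, 1, 2, 0 and 8 counts on the same days. *Mpo* overlaps *Gm11505* on the opposite strand, which held 3 counts over all mice, and whether the counting used strand is not given in the sources used here. The ratio of *Mpo* count rates to CTRL was 1.66 on day 7, with an exact 95% interval of 0.545 to 5.55, and 0.416 on day 21 (0.0674 to 1.95), and the interval included 1 on each of the 6 days.

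For *Elane* on day 42, 5 of 7 mice had a count compared to 1 of 10 CTRL mice, and the ratio of count rates was 11.7 with an exact 95% interval of 1.57 to 521, which covers counting error only. When genes with low counts were kept in the fit, *Elane* passed on day 42 (edgeR, adjusted p = 0.036). For the 0 counts of the 12 mice on day 35, the 1-sided 95% upper limit of the expected count of that group is about 3. In day 14 replicate 8, the library with the most *S100a8*, both *Mpo* and *Elane* had 0 counts.

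Per kilobase of exon, *Lcn2* (31 CPM per kb in the median CTRL mouse), *S100a8* (23.9) and *S100a9* (48.3) stood above *Retnlg* (6.08), *Csf3r* (5.67), *Saa3* (0.434) and *Ngp* (0.234) in CTRL mice. On day 7, *Lcn2* reached 193 CPM per kb and *Saa3* 12.2 CPM per kb. *Saa3* per kilobase thus passed from below *Retnlg* to above it, since *Retnlg* was at 9.74 CPM per kb on day 7.

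**Figure D2:**
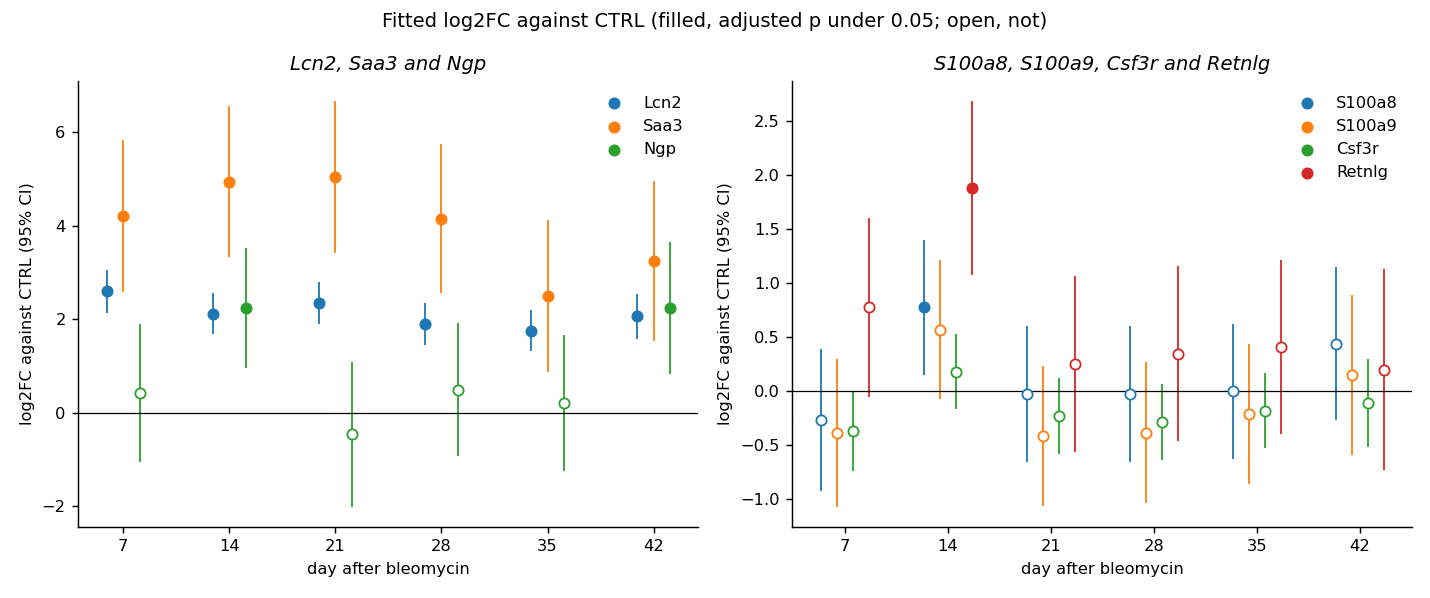
Fitted log2FC against CTRL with 95% confidence intervals (vertical axis) by day after bleomycin (horizontal axis). Filled points had an adjusted p under 0.05 and open points did not. *Lcn2* and *Saa3* are filled on all 6 days, whereas *S100a9* and *Csf3r* are open on all 6 days.

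Of the 7 tested members, 2, 5, 2, 2, 2 and 3 were called in weekly order from day 7 to day 42, all of them higher. Over all genes, 24.8%, 32.4%, 28.3%, 24.1%, 16.9% and 13.7% were called higher on the same days. The share of members, 2 of 7, was near that of all genes on days 7, 21 and 28. On day 14, 3 of 7 members (*Lcn2*, *Saa3* and *Retnlg*) were called without replicate 8, beside 31.4% of all genes.

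Comparisons between BLEO-IPF days asked whether the members changed over the course of the model. On day 14 compared to day 7, *S100a8* (log2FC 1.04 ± 0.32, edgeR, adjusted p = 0.016), *S100a9* (0.96 ± 0.33, 0.034), *Csf3r* (0.55 ± 0.18, 0.023), *Retnlg* (1.1 ± 0.39, 0.037) and *Ngp* (1.83 ± 0.61, 0.029) were called higher, as were 9.48% of all genes. Without replicate 8, no member was called, and the log2FC was 0.29 for *S100a8*, 0.19 for *S100a9*, 0.33 for *Csf3r*, 0.13 for *Retnlg* and 0.33 for *Ngp*, with adjusted p-values of 0.15 to 0.82. Leaving out certain other single mice of day 7 or day 14 also ended the calls of *Retnlg* (8 mice), *S100a9* (7), *Ngp* (3) and *Csf3r* (2), with adjusted p-values of 0.050 to 0.065. *Lcn2* (−0.48 ± 0.21, adjusted p = 0.10) and *Saa3* (0.75 ± 0.61, 0.44) did not pass.

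On day 42 compared to day 7, *Ngp* alone was called (log2FC 1.83 ± 0.68, edgeR, adjusted p = 0.049), beside 7.88% of all genes called higher. This call was lost in 41 of 75 refits that each left out 1 mouse, while its adjusted p was 0.013 without day 14 replicate 8. *Lcn2* (−0.54 ± 0.24, adjusted p = 0.11) did not pass with all mice but did without day 42 replicate 7 (−0.72, 0.039), and *S100a8* (0.71 ± 0.36, 0.16) did without day 14 replicate 8 (adjusted p = 0.048). On day 42 compared to day 14, *Retnlg* was called lower (−1.68 ± 0.45, adjusted p = 0.0029), beside 18.8% of all genes, and without day 14 replicate 8 it was not (−0.71, 0.11). In that refit, *Ngp* was called higher on day 42 (1.5, adjusted p = 0.024). *Saa3* (−1.70 ± 0.73, adjusted p = 0.062) missed the threshold and passed it when any 1 of 5 mice (day 14 replicates 5, 6, 10 or 11, or day 42 replicate 1) was left out, with adjusted p-values of 0.045 to 0.0495.

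**Figure D3:**
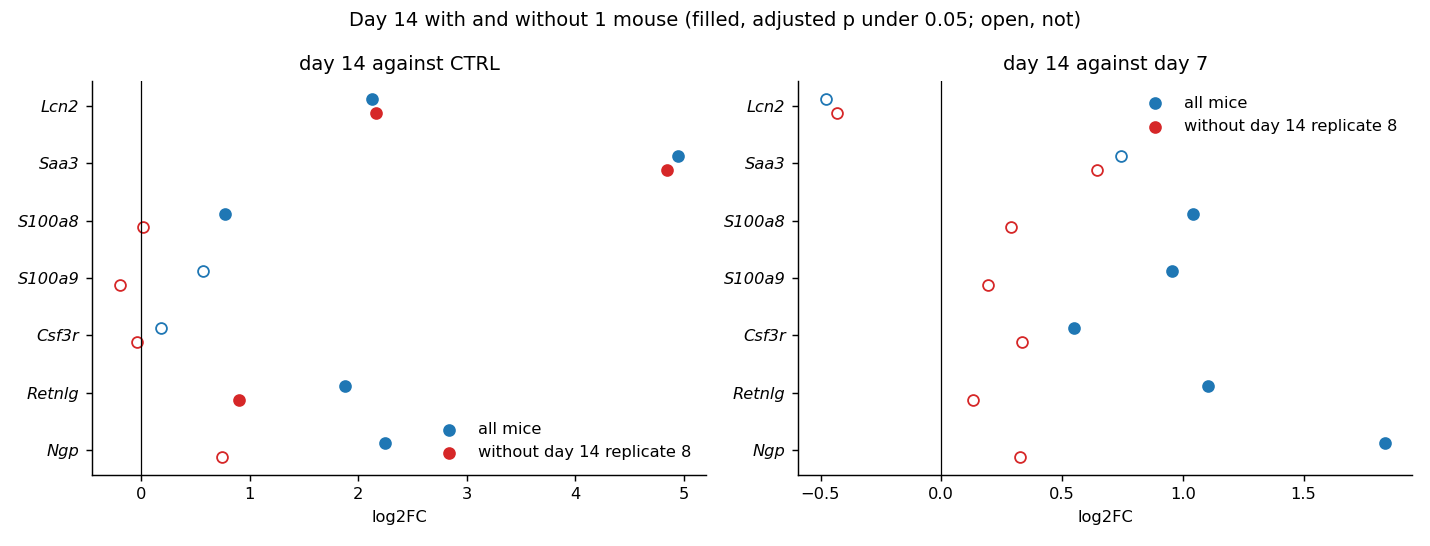
Fitted log2FC (horizontal axis) of the 7 members on day 14 compared to CTRL (left) and to day 7 (right), with all mice (blue) and without day 14 replicate 8 (red). Filled points had an adjusted p under 0.05. The points of *S100a8*, *S100a9*, *Csf3r*, *Retnlg* and *Ngp* move toward 0 without this mouse, whereas on day 14 compared to CTRL *Lcn2* goes from 2.12 to 2.17 and *Saa3* from 4.95 to 4.84.

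From mouse to mouse within groups, the same 4 members went together, though to differing degrees, and *Lcn2* did not go with them. Correlations were computed on log2 CPM after the mean of each group was subtracted, over 75 mice and 21 member pairs, with two-sided permutation tests within groups. The highest was between *S100a8* and *S100a9* (Pearson's r = 0.94, permutation p = 1e-05, the smallest these permutations can give, adjusted p = 4.2e-05; Spearman's rho = 0.85, permutation p = 1e-05). Leaving out the 2 mice farthest from the median of *S100a8* gave r = 0.90, and leaving out day 14 replicate 8 gave 0.91.

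*Retnlg* correlated with *S100a8* (r = 0.83, rho = 0.72, each permutation p = 1e-05, r = 0.74 without the 2 farthest mice) and with *S100a9* (r = 0.83, rho = 0.73, each permutation p = 1e-05, r = 0.75). *Csf3r* correlated with *S100a9* (r = 0.78, rho = 0.68, each permutation p = 1e-05, r = 0.72). *Csf3r* is on another chromosome than the calprotectin genes, which are neighbours on chromosome 3. Pairs with *Ngp* were weaker with all mice, although *Ngp* with *Retnlg* (r = 0.51, rho = 0.35, r = 0.37 without the 2 farthest mice) was near *Csf3r* with *Retnlg*. *Ngp* with *Csf3r* did not pass (r = 0.30, permutation p = 0.047, adjusted p = 0.066; rho = 0.11, permutation p = 0.37; r = 0.17 without the 2 farthest mice).

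*Lcn2* correlated inversely with *Csf3r* (r = −0.36, permutation p = 0.0028, adjusted p = 0.0059; rho = −0.36, permutation p = 0.0018; r = −0.31 without the 2 farthest mice) and with *S100a9* (r = −0.31, permutation p = 0.012, adjusted p = 0.021; rho = −0.34, permutation p = 0.0036; r = −0.33). *Lcn2* and *Saa3* did not pass with all mice (r = 0.27, permutation p = 0.040, adjusted p = 0.060; rho = 0.23, permutation p = 0.072; r = 0.20). *Saa3* correlated weakly with *Retnlg* (r = 0.33, permutation p = 0.0057, adjusted p = 0.011; rho = 0.28, permutation p = 0.023; r = 0.25) and, with all mice, with no other member. Without day 14 replicate 8, *Lcn2* and *Saa3* passed (r = 0.29, permutation test, adjusted p = 0.047). In all, 12 of 21 pairs passed at an adjusted p under 0.05.

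**Figure D4:**
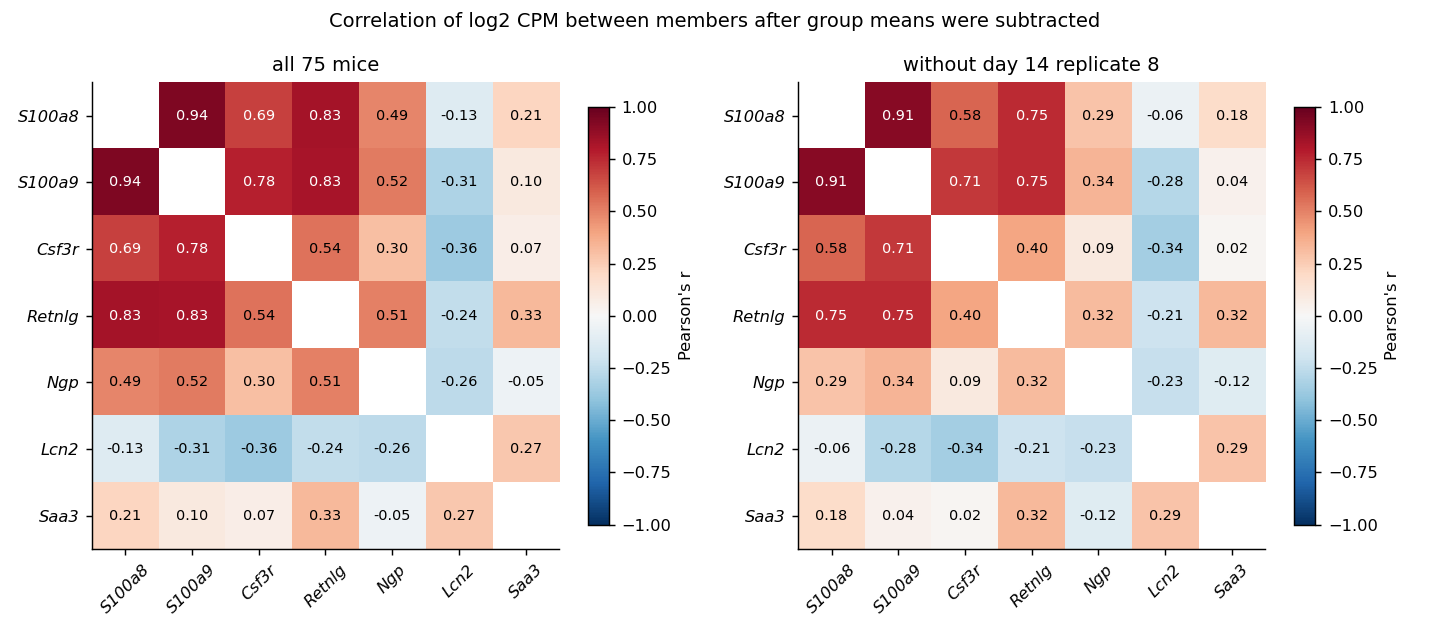
Pearson's r between members over mice, after group means were subtracted, with all 75 mice (left) and without day 14 replicate 8 (right). Rows and columns are the 7 tested members and the color scale runs from −1 (blue) to 1 (red). *S100a8*, *S100a9*, *Csf3r* and *Retnlg* form a red block in both panels, whereas the row of *Lcn2* is blue for the other members apart from *Saa3*.

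Over the 75 mice, the genes most like each member differed in the same way. After *S100a9* and *Retnlg*, *S100a8* was most like *Ppp1r2*, an inhibitor of protein phosphatase 1 (r = 0.77), and *Csf3r* was most like *Mmp9*, a gelatinase stored in neutrophil granules (r = 0.78). *Retnlg* came with *S100a8*, *S100a9* and *Chic2* (r = 0.77), and *Ngp* with *Hrct1* (r = 0.60) and *Crispld2* (r = 0.55).

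*Lcn2* was most like *Slc26a4*, the anion exchanger pendrin of airway epithelium (r = 0.83), *Npc2*, a cholesterol carrier of the lysosome that is abundant in lung secretions (r = 0.82), and *Slc5a1*, a sodium-glucose cotransporter of epithelia (r = 0.78). *Saa3* was most like *Chl1*, a cell adhesion molecule (r = 0.86), *Timp1*, an inhibitor of metalloproteinases (r = 0.86), and *Ccl2*, a chemokine for monocytes (r = 0.84). Without day 14 replicate 8, these 6 values for *Lcn2* and *Saa3* ranged from 0.77 to 0.86, whereas *Ppp1r2* fell to 0.65, *Chic2* to 0.65, *Hrct1* to 0.49 and *Crispld2* to 0.43, and of these 4 only *Hrct1* stayed among the 3 genes most like its member. The values are descriptions of mice that share a group mean and a library each.

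Other genes of the same biology were taken from 7 lists. Among 25 tested genes of mature neutrophils, 13, 17, 14, 12, 10 and 10 rose and 4, 2, 1, 1, 1 and 0 fell in weekly order from day 7 to day 42. Over all genes, 21.0%, 29.9%, 25.8%, 19.2%, 13.1% and 11.0% were called lower on the same days, beside the shares called higher given above. The median log2FC of the list was 1.25 on day 14 and 1.01 without replicate 8, compared to 0.0079 over all genes. The largest increases were in *Cd177*, an adhesion protein of the neutrophil surface (log2FC 4.17 ± 0.49 on day 14, edgeR, adjusted p = 4.9e-11), *Il1r2*, a decoy receptor for interleukin-1 (2.85 ± 0.43, 3.7e-08), and *Clec4d*, a C-type lectin of myeloid cells (2.63 ± 0.24, 1.4e-14). Without replicate 8, these were 4.12, 2.05 and 2.53. *Il1r2* was low, with a median of 0.875 CPM in CTRL mice and 3.46 CPM on day 14. *Cd177* ranged from 9.94 to 459 CPM on day 14 and from 2.93 to 7.19 CPM in CTRL mice. Replicate 8 was at 125 CPM, so *Cd177* was highest in a day 14 mouse with at most 39.3 CPM of *S100a8*. The cells that expressed *Cd177* were not identified.

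Several of the genes that rose in this list, among them *Itgb2*, *Itgam* and *Clec4d*, are also expressed by monocytes and macrophages. The 5 monocyte markers had a median summed level of 133 CPM in CTRL mice, 288 CPM on day 7 and 303 CPM on day 14. Their part in the result was not tested.

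Of 13 tested granule protein and granulopoiesis genes, between 8 and 10 rose on each day and at most 1 fell. On these days, 13.7% to 32.4% of all genes were called higher and 11% to 29.9% lower. *Ltf*, which encodes the iron-binding protein lactoferrin, had its largest value on day 42 (log2FC 3.40 ± 0.55, edgeR, adjusted p = 2.5e-06), when it ranged from 8.58 to 463 CPM around a median of 39.3 CPM, compared to 7.79 to 22.4 CPM in CTRL mice. The CTRL median of *Ltf* was 11.6 CPM, beside 0.286 CPM for *Ngp*, and the cells that transcribed *Ltf* were not identified. *Mmp8* rose most on day 14 (2.88 ± 0.32, adjusted p = 4.6e-12, and 2.68 without replicate 8). *Cybb*, a subunit of the phagocyte NADPH oxidase that macrophages share, rose by 1.37 ± 0.16 on day 14 (adjusted p = 1.3e-11).

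Among 17 tested chemoattractants and growth factors, 11 rose on days 7, 14, 21 and 42, 10 on day 28 and 6 on day 35. The share of all genes called higher ranged from 13.7% on day 42 to 32.4% on day 14. *Lif*, a cytokine of the interleukin-6 family, rose by 2.86 ± 0.21 on day 14 (edgeR, adjusted p = 2.5e-18), *Cxcl1*, a ligand of CXCR2, by 1.81 ± 0.37 on day 7 (4.6e-05) and *Tnf* by 1.68 ± 0.27 on day 14 (1.6e-07). Levels of *Cxcl1* and *Tnf* were low, with medians of 0.593 and 0.652 CPM in CTRL mice and 2.59 and 1.80 CPM on those days. *Cxcl5*, another ligand of CXCR2, rose on all 6 days with values from 1.43 on day 35 to 2.75 on day 42. *Ppbp*, a chemokine of platelets, fell on days 7 to 28, and −1.39 was its lowest value, on day 14.

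The acute phase genes had the largest share of increases among the 7 lists on days 7 to 28. Of 22 tested, 21, 20, 19, 18, 11 and 10 rose in weekly order from day 7 to day 42, and the 1 that fell was *Itih4* on day 14, when without replicate 8 none fell. The largest share of all genes called higher was 32.4%, on day 14, and the smallest was 13.7%, on day 42. The median log2FC was 1.63 on day 7, 1.71 on day 14 (1.69 without replicate 8) and 0.60 on day 42. The largest increases, all on day 14, were in the protease inhibitor *A2m* (log2FC 4.73 ± 0.48, edgeR, adjusted p = 3.6e-13), the metallothionein *Mt2* (4.28 ± 0.52, 8.9e-11) and *Orm1*, which encodes orosomucoid (3.65 ± 0.54, 2.3e-08). Without replicate 8, they were 4.51, 3.65 and 3.46. *A2m* and *Orm1* were near the detection limit in CTRL mice, with medians of 0.302 and 0.192 CPM. Their medians on day 14 were 4.33 and 2.46 CPM. On day 42, *A2m* (−1.12) was not called, whereas *Orm1* (2.52) was.

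Of 17 genes of acute phase signalling, 8 were called higher and 3 lower on day 7, and 6 higher and 2 lower on day 42. Of all genes, 24.8% were called higher and 21% lower on day 7, and 13.7% and 11% on day 42. The counts of lower genes were near these shares. *Socs3*, the feedback inhibitor of STAT3 signalling, rose by 2.07 ± 0.23 on day 14 (edgeR, adjusted p = 5.7e-12), *Bcl3*, a nuclear partner of NF-kappaB, by 1.41 ± 0.17 (5.9e-11) and *Osmr*, the oncostatin M receptor, by 1.03 ± 0.12 (6.0e-11). *Il6ra*, the interleukin-6 receptor, fell on all 6 days, from −0.45 on day 7 to −0.84 on day 21. *Lifr* also fell on all 6 days, with −0.69 on day 14.

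Of 10 tested receptors and binding partners of the members' proteins, 4, 5, 6, 6, 6 and 6 rose and 2, 2, 1, 0, 1 and 0 fell in weekly order from day 7 to day 42. On day 7, 24.8% of all genes were called higher and 21% lower. The list's lower share was below that of all genes on each day. *Cd33* (1.40 ± 0.16 on day 14, edgeR, adjusted p = 2.3e-11), *Tlr2* (1.23 ± 0.18, 1.7e-08) and *Lrp2*, the endocytic receptor megalin that takes up lipocalin 2 (1.16 ± 0.20 on day 21, 1.9e-06), were highest. *Ager*, which encodes the S100 receptor RAGE and marks alveolar type 1 cells, did not pass on any day, with values from −0.16 to 0.22.

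Paralogs of the members rose in 11 of 12 tested on day 7 and in 5 of 12 on day 42, and none fell. The shares of all genes called higher were 24.8% and 13.7% on these days. *Retnla*, the paralog of *Retnlg* made by airway epithelium and macrophages, rose by 4.75 ± 0.43 on day 7 (edgeR, adjusted p = 2.2e-14), to between 458 and 1294 CPM from 20.02 to 47.9 CPM in CTRL mice. *S100a14*, an epithelial S100 gene, rose by 2.37 ± 0.26 on day 14 (7.4e-12) and *S100a4*, an S100 gene of fibroblasts and macrophages, by 2.37 ± 0.30 (5.4e-10). *Saa1*, a near copy of *Saa2*, rose on days 7 to 28 (3.19 on day 7) and not on days 35 (0.47) and 42 (0.65), and reads that the copies share make its values uncertain.

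**Figure D5:**
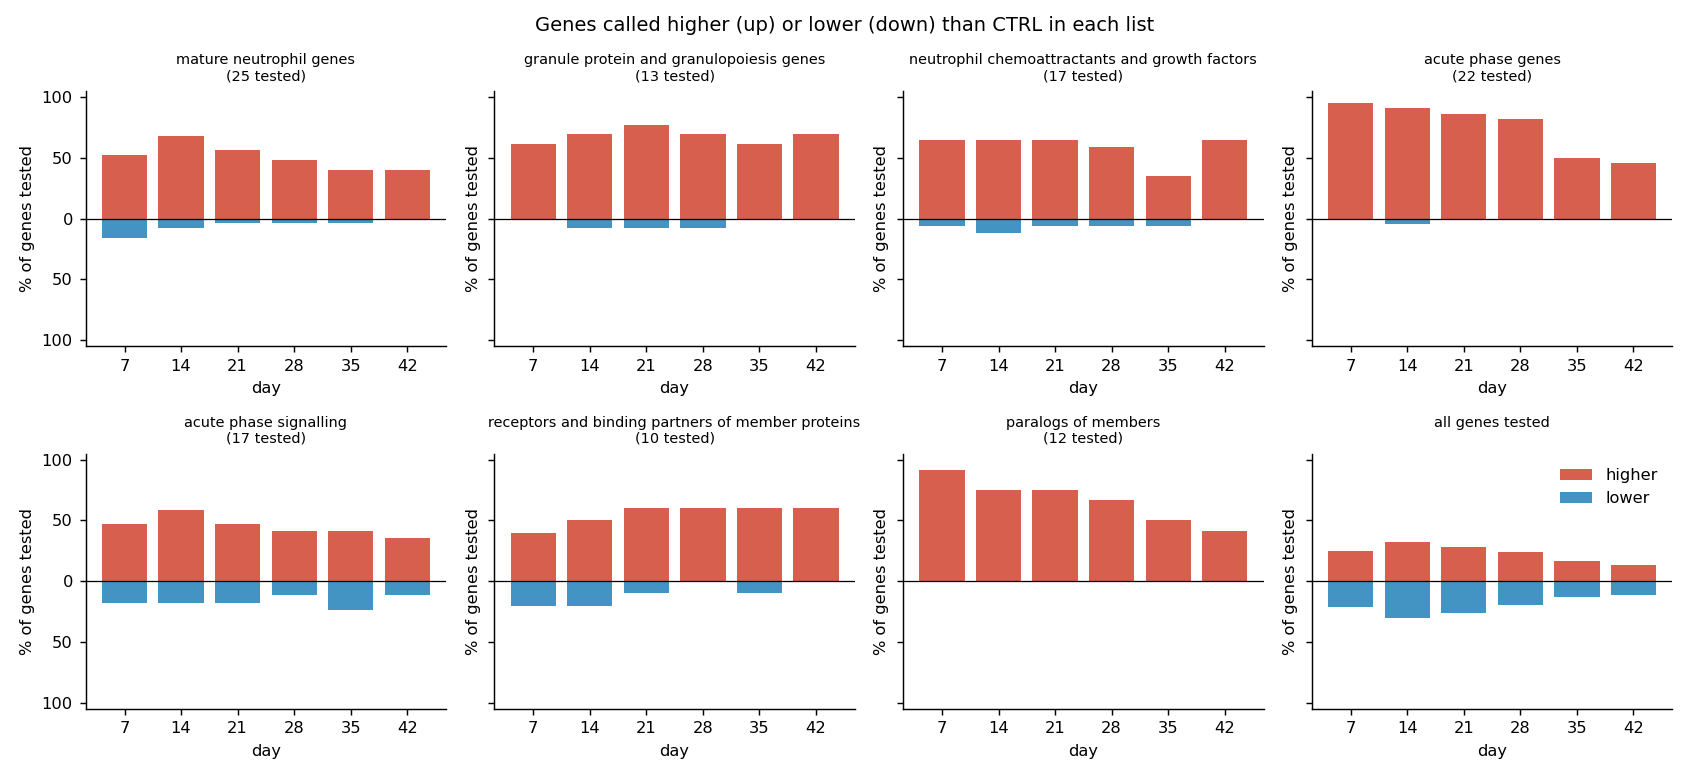
Percent of tested genes called higher (red, upward) or lower (blue, downward) than CTRL in each of 7 gene lists and over all genes, by day after bleomycin. The acute phase panel has the tallest red bar, for 21 of 22 genes on day 7, and its bars on days 35 and 42 stand for 11 and 10 genes.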

How the data were processed

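RNA was measured in the inferior lobe of 75 mice. The authors aligned single-end reads from stranded libraries with STAR 2.7.0f to GRCm38 with Ensembl 96 names (per the methods and the submitters' processing notes) and deposited raw read counts per gene; the counting program and its treatment of strand and of multiply mapped reads are not given in the sources used here. Total counts per library, from 9240291 to 14665247, set the precision.

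Counts were analysed in R 4.3.3 with edgeR 4.0.16 (TMM factors, filterByExpr with a minimum count of 10, quasi-likelihood F test, 7 group means fitted over 75 mice, 9 comparisons), with Benjamini-Hochberg adjustment across 16221 genes and a threshold of 0.05. SEs are of the fitted log2FC. Log2 CPM used a prior count of 2. Permutation tests used 100000 resamples in Python 3.11.15 with scipy 1.17.1; figures used matplotlib 3.10.9. Alternatives used limma 3.58.1 and DESeq2 1.42.0. Steps were tested on simulated data. No 2 libraries of a group agreed within sampling noise. The labels do not say whether mice shared a cage or litter.

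The members and lists were chosen with earlier results of these data known. Beyond the members, the rule named up to 3 genes per list with the largest absolute log2FC among those called against CTRL with a mean log2 CPM above 0, and the 3 genes most like each tested member; *Cxcr2*, *Cxcl5*, *Ppbp*, *Itih4*, *Il6ra*, *Lifr*, *Ager*, *Saa1*, *Itgb2* and *Itgam* were named after their values were seen. One gene that the rule named is not reported here. The refits without 1 mouse were also added then. Exon lengths and positions are from GENCODE M21.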

Additional observations from a re-analysis of the deposited data

Results flagged for a closer look

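*Saa3* in CTRL mice was marked because the highest mouse (2.92 log2 CPM) lay far from the other 9. Of 21 groups checked in this way, chance marks about 1 in 20. Without this mouse, replicate 2, *Saa3* still passed on all 6 days.

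Differences between BLEO-IPF days were marked where the difference itself passed the test. On day 14 compared to day 7, these were *S100a8* (log2FC 1.04), *S100a9* (0.96), *Csf3r* (0.55), *Retnlg* (1.1) and *Ngp* (1.83). On day 42 compared to day 7, it was *Ngp* (1.83), and on day 42 compared to day 14, *Retnlg* (−1.68). Day 14 replicate 8 is the highest of all mice for each of these 5 genes. Without it, the differences of day 14 from day 7 were 0.13 to 0.33 and none passed, and *Retnlg* on day 42 compared to day 14 was −0.71 (edgeR, adjusted p = 0.11).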

How the results depend on the processing

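Across 8 alternatives and 63 member values, 453 of 504 refits kept direction and call, 29 lost a call, 8 gained one and 14 changed sign, none of them among values called with all mice. The cause of the changes below was not tested. With only the mice compared in the fit, 4 members were called on day 7, 0 on day 14 against day 7 and 2 on day 42 against day 7. With limma-voom, 3 were called on day 14, 1 on day 28, 1 on day 35, and 0 in each comparison between days. With no filter on low counts, 2 were called on day 14 against day 7 and 0 on day 42 against day 7. Robust empirical Bayes and DESeq2 called 0 on day 42 against day 7, and DESeq2 called 2 on day 42 against day 14. Over all numbers, same-numbered mice did not deviate together (mean r = 0.00584 over 204 pairs, 63 of them above 0.1), apart from the 4 mice numbered 11 (mean r = 0.289, lowest 0.163 of 6 pairs), so the numbers were not taken to pair mice. A replicate block called 3 members on day 14 against day 7 and 2 on day 42 against day 14, with log2FC of *S100a8* at 0.10 on day 21, 0.11 on day 28 and 0.15 on day 35 and of *Ngp* at 0.43 on day 42 against day 14. Other sign changes, none in a called value, were with limma-voom *S100a9* on day 14 (−0.012), *S100a8* on day 28 (0.0057) and, on day 42 against day 14, *S100a8* (0.21), *S100a9* (0.094) and *Ngp* (0.97), with library size *S100a8* on day 35 (0.013) and *Ngp* on day 42 against day 14 (0.093), with upper quartile factors the same (0.0038 and 0.072), and with no filter *Ngp* on day 42 against day 14 (0.012). Leaving out each mouse in turn, an alternative added after seeing the data, gave 2 to 4 members called on day 7, 3 to 5 on day 14, 2 to 3 on day 42, 0 to 5 on day 14 against day 7, 0 to 2 on day 42 against day 7 and 1 to 2 on day 42 against day 14. Its log2FC ranges that crossed 0 were, for *S100a8*, −0.12 to 0.065 on day 21, −0.12 to 0.063 on day 28, −0.10 to 0.089 on day 35 and −0.55 to 0.42 on day 42 against day 14, for *S100a9*, −0.20 to 0.66 on day 14, −0.11 to 0.27 on day 42 and −0.68 to 0.34 on day 42 against day 14, for *Csf3r*, −0.039 to 0.25 on day 14 and −0.23 to 0.013 on day 42, for *Retnlg*, −0.0054 to 0.46 on day 28 and −0.080 to 0.31 on day 42, and on day 42 against day 14 for *Ngp* −0.48 to 1.5 and for *Lcn2* −0.25 to 0.080. Depth limits *Ngp*, *Mpo* and *Elane*, whose counts were near 0 in most mice.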

Other observations

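Ratios between the abundant neutrophil members, computed mouse by mouse from counts, were compared with CTRL mice after the values were seen. There were 36 comparisons (6 ratios on 6 days), tested by permutation of mice and adjusted over the 36. The ratio of *S100a9* to *Retnlg* was lower on day 7, with a mean log2 ratio of 1.51 ± 0.33 (SD, n = 10) compared to 2.68 ± 0.31 (n = 10) in CTRL mice, and the ranges (0.99 to 2.03 and 2.33 to 3.34) did not overlap (permutation p = 2e-05, adjusted p = 0.00029). It was also lower on day 14 (1.58 ± 0.36, n = 12, permutation p = 4e-05, adjusted p = 0.00029), with all but 1 of the 12 mice below the lowest CTRL mouse. Days 21 (permutation test, adjusted p = 0.0034) and 35 (0.020) were lower too, whereas days 28 (0.062) and 42 (0.75) did not pass. The ratios of *S100a8* and of *Csf3r* to *Retnlg* were lower on days 7 and 14 only (permutation test, adjusted p of 0.00029 to 0.0034).

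The ratio of *S100a8* to *S100a9* was higher on day 21, with a mean log2 ratio of −0.10 ± 0.29 (SD, n = 12) compared to −0.54 ± 0.17 (n = 10) in CTRL mice (permutation p = 4e-05, adjusted p = 0.00029). On day 42, it was −0.17 ± 0.29 (n = 7, exact permutation p = 0.0022, adjusted p = 0.0065), and on day 7, it was −0.41 ± 0.10 (permutation p = 0.053, adjusted p = 0.11). Days 14 (permutation test, adjusted p = 0.0010) and 28 (0.0064) were higher too, whereas day 35 did not pass (0.088). The ratio of *S100a8* to *Csf3r* was higher on day 42 only (permutation test, adjusted p = 0.0034), and that of *S100a9* to *Csf3r* passed on no day. In day 14 replicate 8, *Ltf* was at 8.48 CPM, 72nd of 75 mice, although *S100a8* and *S100a9* were the highest of all.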
